A study of Mus musculus with 12 samples.

Results

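The genes of cyclic nucleotide and protein kinase A signalling were followed across 3 fractions of mouse kidney tubules. Members were the genes whose array name begins with Adcy, Prkac, Prkar or Akap, or with Pde and the number and letter of a phosphodiesterase. The letters gave 52 of the 27598 genes named on the array, read by 116 probes: 9 adenylyl cyclases, 22 phosphodiesterases, 6 subunits of protein kinase A and 14 A-kinase anchoring proteins. The remaining one, Pde4dip (myomegalin), is no enzyme but binds the phosphodiesterase Pde4d, and the letters of its name brought it in. The rule reads names and no measured level, though the gene set itself was proposed with earlier results of these data known.

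Kidneys of 2 male (mice 2 and 4) and 2 female animals (mice 1 and 3) gave the tubules, which were sorted with a COPAS large-particle sorter. EGFP+ tubules carried the green fluorescent protein EGFP and are, per the series' text, distal convoluted tubules (DCT), the segment that follows the thick ascending limb. ALL is the total fraction, and EGFP- holds the tubules without EGFP. Each fraction of each mouse has 1 array, 12 in all, so a fraction has n = 4. All 3 fractions come from the same 4 animals, and no non-transgenic kidney is among them. No treatment is named in the labels used here. The sources used here do not give the strain, the age or the promoter that drives EGFP.

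Adenylyl cyclases make cyclic AMP (cAMP), most of them when a hormone receptor switches on the G protein Gs, and phosphodiesterases break cAMP or cyclic GMP (cGMP) down again. Protein kinase A, the main target of cAMP, is held inactive by regulatory subunits until cAMP frees its catalytic subunits. Anchoring proteins bind the regulatory subunits and fix the kinase to a place in the cell. In the distal nephron, parathyroid hormone, glucagon, vasopressin, calcitonin and adrenaline raise cAMP, with effects on the transport of salt, calcium and magnesium.

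Levels are log2 processed signals minus the 75th percentile of the array, so that 0 is the array's upper quartile, and a level of one gene's probe cannot be set against that of another gene. The 75th percentiles ran from 922 to 2270, with the ALL and EGFP- arrays of mouse 4 the dimmest. A probe was tested where at least 4 of the 12 arrays had it well above background by the scanner software, and the brightest tested probe stands for its gene. No member's representative probe was saturated on any array. The label of the EGFP+ fraction was set beside 7 known markers of the DCT, listed with earlier results of these data known, and all 7 were higher in EGFP+ tubules. Among them Slc12a3, the thiazide-sensitive cotransporter, was higher by 8.37 on the log2 scale, and Trpm6, the magnesium channel, by 8.08.

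Of the 52 members 42 could be tested, and 10 could not. The untested ones were the cyclases Adcy2 and Adcy8, the anchoring proteins Akap3 and Akap14, and 6 phosphodiesterases: Pde5a, the photoreceptor enzymes Pde6a, Pde6b and Pde6c, Pde10a and Pde11a. None of their probes was well above background on more than 1 array, except for Pde10a, which passed on 2 EGFP+ arrays, 1 ALL array and no EGFP- array.

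In EGFP+ tubules 15 of the 42 tested members were higher and 19 were lower than in EGFP- tubules, while 8 did not pass the test (limma, Benjamini-Hochberg adjusted p under 0.05 over all genes). Over all 17071 genes tested, 32.3% were higher and 25.9% lower, so a majority of the whole array was called as well. The median difference of the members was -0.09, against 0.11 for all genes, and it was above 0 with normexp (0.16, all genes 0.26), with median centring (0.07, all genes 0.26) and without a filter on dim probes (0.02, all genes 0.08). The families were split unevenly: 1 cyclase was higher and 6 lower, 9 phosphodiesterases were higher and 6 lower, 3 subunits of protein kinase A were higher and 1 lower, and 1 anchoring protein was higher and 6 lower. Measured differences of at least 2 on the log2 scale were found in 5 members on the higher side and 13 on the lower side. Several of the 13 rest on probes not well above background in any EGFP+ array, tested through the ALL and EGFP- arrays. For these only bounds are given below, and the bounds rest on the scanner software's background correction. With normexp the differences of Adcy3 and Akap6 turned positive, so their bounds do not hold there. Those of Adcy7, Pde3a, Pde4d and Prkar2b were then smaller than their bounds. With a difference of at least 1, 6 members were higher and 16 lower, against 2274 and 3310 of the 17071 genes. Counts over all genes were not made at the size of 2. All 34 called members had the same sign in 4 of 4 mice and within each of the 3 slides, and in all 34 the 4 EGFP+ arrays did not overlap with the 4 EGFP- arrays. The 34 were picked by a test on these same arrays, which favours such agreement, and the share over all called genes was not counted. Slide contrasts mix sexes, because slide 2 sets an EGFP+ array of a female mouse against an EGFP- array of a male mouse. In bulk RNA, fewer cells of a type and less RNA per cell cannot be told apart, which holds for every difference given here. The choice of background correction bears on the calls: of the 9 lower members not well above background on all 4 EGFP+ arrays, 8 were not called when background was corrected by normexp (a model of signal plus noise, fitted to the raw intensities), against 2 of the 10 lower members measured on all 4 EGFP+ arrays.

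**Figure D1:**
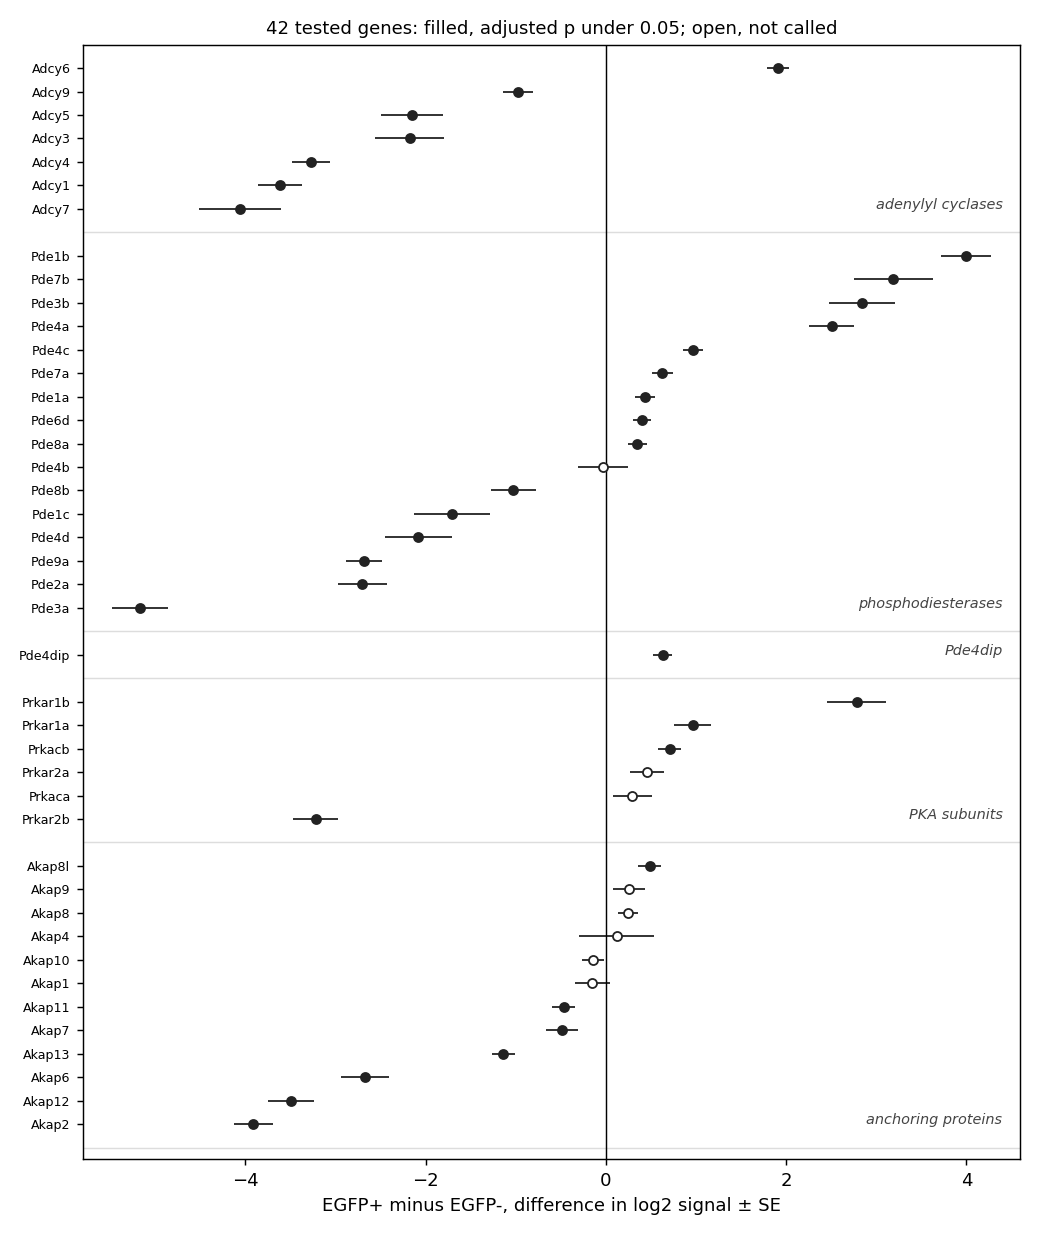
Difference in log2 signal, EGFP+ minus EGFP- tubules, for the 42 tested genes, grouped by family from top to bottom; points are limma estimates over 4 mice per fraction and bars are ± 1 SE. Filled points passed an adjusted p of 0.05 and open points did not; Pde1b is farthest to the right (3.995) and Pde3a, not well above background in EGFP+ tubules, farthest to the left (measured difference -5.17).

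Among the adenylyl cyclases, Adcy6 was the single one higher in EGFP+ tubules, and the other 6 tested were lower. Adcy6 is one of the forms inhibited by calcium and is prominent in the distal nephron. It falls outside the rule for full values and is given here because it stood alone, a choice made after its values were seen. Its levels were 4.69, 4.61, 4.56 and 4.78 in EGFP+ tubules of mice 1 to 4, 3.36, 3.01, 3.25 and 2.92 in ALL and 2.73, 2.56, 2.93 and 2.78 in EGFP- tubules. Every EGFP+ array lay above every array of the other fractions, and the difference from EGFP- tubules was 1.91 ± 0.13 (SE, 3.76-fold, adjusted p = 1.13e-07). The file places its probe on only 15 bases, at chr15:98418007-98418021 in mm8.

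Adcy1, a cyclase stimulated by calcium and calmodulin, stood at -4.65, -4.23, -4.66 and -4.73 in EGFP+ tubules, -0.92, -1.33, -0.76 and -1.54 in ALL and -0.49, -0.96, -0.75 and -1.60 in EGFP- tubules. The EGFP+ arrays lay below all others, with a difference of -3.61 ± 0.25 from EGFP- tubules (adjusted p = 1.52e-07), and 2 of the 4 were well above background. Adcy4, which responds to G protein beta-gamma subunits, stood at -2.98, -3.32, -3.60 and -3.39 in EGFP+ tubules, 0.31, -0.32, -0.35 and -0.58 in ALL and 0.27, -0.29, 0.05 and -0.24 in EGFP- tubules. It was well above background on every array of all 3 fractions, with no overlap between EGFP+ and EGFP- and a difference of -3.27 ± 0.21 (adjusted p = 8.58e-08). With normexp the difference of Adcy1 was -1.64 and that of Adcy4 -2.15, still below 0 and called.

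Adcy7, another form open to beta-gamma subunits, stood at -5.93, -6.69, -6.97 and -7.09 in EGFP+ tubules, -2.15, -2.77, -2.42 and -3.93 in ALL and -2.17, -2.72, -1.86 and -3.69 in EGFP- tubules. This probe was not well above background in any EGFP+ array, so that by this probe Adcy7 was at least 6.25-fold lower than in EGFP- tubules (measured difference -4.06, adjusted p = 1.14e-05). Beside such a bound, here and below, the p belongs to the measured difference and not to the bound. A second probe of Adcy7, well above background on 1 array each of EGFP+ and EGFP- tubules, gave -0.84 ± 0.72 (adjusted p = 0.344 over all probes). Adcy3, the cyclase of olfactory neurons, stood at -7.37, -7.33, -6.85 and -7.01 in EGFP+ tubules, -4.83, -5.32, -4.61 and -5.12 in ALL and -4.46, -4.59, -4.43 and -6.38 in EGFP- tubules. No probe of Adcy3 passed on any EGFP+ array, so it was at least 1.22-fold lower (measured difference -2.18, adjusted p = 0.00042 for that difference). Under normexp neither call held: Adcy7 gave -0.71 (adjusted p = 0.24) and Adcy3 turned to 0.52 (adjusted p = 0.421).

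Of all tested cyclases, Adcy9, a form little responsive to forskolin, was nearest to no difference. Its levels were 0.40, 0.18, 0.54 and 0.47 in EGFP+ tubules, 1.07, 1.33, 1.17 and 1.77 in ALL and 1.21, 1.40, 1.21 and 1.66 in EGFP- tubules. The EGFP+ arrays were still below the EGFP- arrays, with a difference of -0.97 ± 0.17 (adjusted p = 0.000328). Adcy5, the closest relative of Adcy6, was lower, with a difference of -2.15 ± 0.34 and 1 of 4 EGFP+ arrays well above background, but its sign turned with normexp (0.088, adjusted p = 0.88).

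The phosphodiesterases went both ways, and by the probes that stand for the genes, members of one subfamily parted. Pde1b was higher and Pde1c lower, and Pde3b higher and Pde3a lower. Pde4a and Pde4c were higher and Pde4d lower, and Pde8a higher and Pde8b lower. The largest positive difference of any member was that of Pde1b, an enzyme stimulated by calcium and calmodulin that splits both cAMP and cGMP. Its levels were 0.10, -1.28, -0.26 and -0.28 in EGFP+ tubules of mice 1 to 4, -2.66, -3.16, -2.96 and -3.50 in ALL and -4.35, -4.13, -4.44 and -4.78 in EGFP- tubules. The 3 fractions did not overlap, with EGFP+ highest and EGFP- lowest, and EGFP+ exceeded EGFP- tubules by 3.995 ± 0.28 (15.9-fold, adjusted p = 2.03e-07). The probe was well above background on 4 EGFP+, 4 ALL and 3 EGFP- arrays. Pde7b, specific for cAMP, stood at -3.26, -3.28, -2.08 and -3.63 in EGFP+ tubules, -5.32, -6.78, -5.07 and -6.05 in ALL and -5.85, -6.74, -5.64 and -6.78 in EGFP- tubules. EGFP+ arrays were all above the others. This probe was not well above background in any EGFP- array, so by this probe alone Pde7b was at least 4.79-fold higher (measured difference 3.19, adjusted p = 5.87e-05). A second probe of Pde7b was well above background on 4 EGFP+ arrays, 1 ALL array and 1 EGFP- array. It gave 1.69 ± 0.71 (adjusted p = 0.0623 over all probes), and its EGFP- value in mouse 1 (-3.74) lay above all 4 EGFP+ values.

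Pde3b, a cAMP phosphodiesterase inhibited by cGMP and known from fat and liver cells as a target of insulin signalling, stood at -0.43, -0.42, -0.35 and -0.94 in EGFP+ tubules, -2.58, -2.85, -2.29 and -3.82 in ALL and -2.67, -3.33, -3.20 and -4.29 in EGFP- tubules. EGFP+ arrays lay above all others, by 2.84 ± 0.37 over EGFP- tubules (7.16-fold, adjusted p = 3.49e-05). Its relative Pde3a, known for its part in heart, platelets and smooth muscle, stood at -7.25, -7.27, -6.85 and -6.96 in EGFP+ tubules, -1.68, -2.36, -1.97 and -3.18 in ALL and -1.40, -2.16, -1.68 and -2.43 in EGFP- tubules. None of its probes was well above background on an EGFP+ array, while all 4 ALL and all 4 EGFP- arrays were, and Pde3a was at least 10.1-fold lower in EGFP+ tubules (adjusted p = 5.66e-08). With normexp Pde3a gave -1.18 (adjusted p = 0.0537), on the other side of the threshold. The pair is shown by the probes that read it, each printed whole, because they carry the opposite results of one subfamily:
Pde3b, chr7:114327334-114327393 on the + strand: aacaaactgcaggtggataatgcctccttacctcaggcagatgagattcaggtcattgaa
Pde3a, chr6:141464039-141464098 on the + strand: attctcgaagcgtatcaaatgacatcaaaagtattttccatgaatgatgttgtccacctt
Pde1b, chr15:103357960-103358019 on the + strand, the member with the largest excess: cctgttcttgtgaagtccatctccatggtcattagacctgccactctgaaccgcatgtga

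Pde4 enzymes are specific for cAMP and inhibited by rolipram. The brighter probe of Pde4a stood at 0.95, 0.59, 0.91 and 0.73 in EGFP+ tubules, -0.86, -1.53, -1.01 and -1.99 in ALL and -1.66, -1.53, -1.41 and -2.23 in EGFP- tubules. EGFP+ arrays were above all others, by 2.50 ± 0.25 over EGFP- tubules (5.67-fold, adjusted p = 3.93e-06). Pde4c was higher by 0.97 ± 0.11 (adjusted p = 1.16e-05), with 4 of 4 arrays well above background in every fraction. Pde4b was the phosphodiesterase nearest to no difference, at 0.22, -0.37, -0.17 and -0.06 in EGFP+ tubules, 0.59, -0.63, 0.24 and -0.60 in ALL and 0.19, -0.37, 0.26 and -0.30 in EGFP- tubules. Its fractions overlapped fully and the difference was -0.04 ± 0.28 (adjusted p = 0.922). Pde4d was lower on its brightest probe, which was not well above background in any EGFP+ array, so by this probe alone at least 3.35-fold (adjusted p = 0.000495). With normexp the difference on this probe was -0.01 (adjusted p = 0.986). Another probe of Pde4d was well above background on all 4 EGFP+ arrays, 3 ALL arrays and 2 EGFP- arrays, and gave 0.13 ± 0.38 (adjusted p = 0.785 over all probes).

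Pde2a, which is stimulated by cGMP, stood at -2.96, -3.44, -3.40 and -3.64 in EGFP+ tubules, -0.29, -0.83, -0.80 and -1.53 in ALL and -0.24, -0.63, -0.51 and -1.24 in EGFP- tubules. The EGFP+ arrays lay below all others, with a difference of -2.70 ± 0.27 from EGFP- tubules (adjusted p = 4.47e-06) and of -1.71 with normexp. Pde9a, specific for cGMP, stood at -1.41, -0.98, -0.82 and -0.88 in EGFP+ tubules, 1.17, 1.63, 1.51 and 1.96 in ALL and 1.34, 1.61, 1.65 and 2.01 in EGFP- tubules. It was well above background on all 12 arrays, and the EGFP+ arrays did not overlap with the others (difference -2.68 ± 0.20, 6.41-fold lower, adjusted p = 3.26e-07).

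Smaller differences completed the family. The cAMP-specific Pde7a was higher by 0.63 ± 0.11 and Pde8a by 0.35 ± 0.11, Pde1a, stimulated by calcium and calmodulin, by 0.43 ± 0.11, and Pde6d by 0.40 ± 0.10. The product of Pde6d is no catalytic subunit but a carrier of prenylated proteins. The calls of Pde1a, Pde6d and Pde8a were lost without mouse 3 (differences 0.37, 0.35 and 0.27, adjusted p = 0.0559, 0.0626 and 0.118), and that of Pde8a also without mouse 4 (0.31, adjusted p = 0.0639). With normexp Pde6d (0.29, adjusted p = 0.107) and Pde8a (0.23, adjusted p = 0.1) did not pass. On the lower side, Pde8b gave -1.03 ± 0.25 and Pde1c -1.71 ± 0.42. Pde1c's probe was not well above background in any EGFP+ array, so by this probe alone it was at least 1.25-fold lower, while another probe of Pde1c, too dim to be tested, passed on 1 EGFP+ array. The sign of Pde1c turned with normexp (0.63, adjusted p = 0.331), while Pde8b kept its sign but not its call (-0.25, adjusted p = 0.47).

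**Figure D2:**
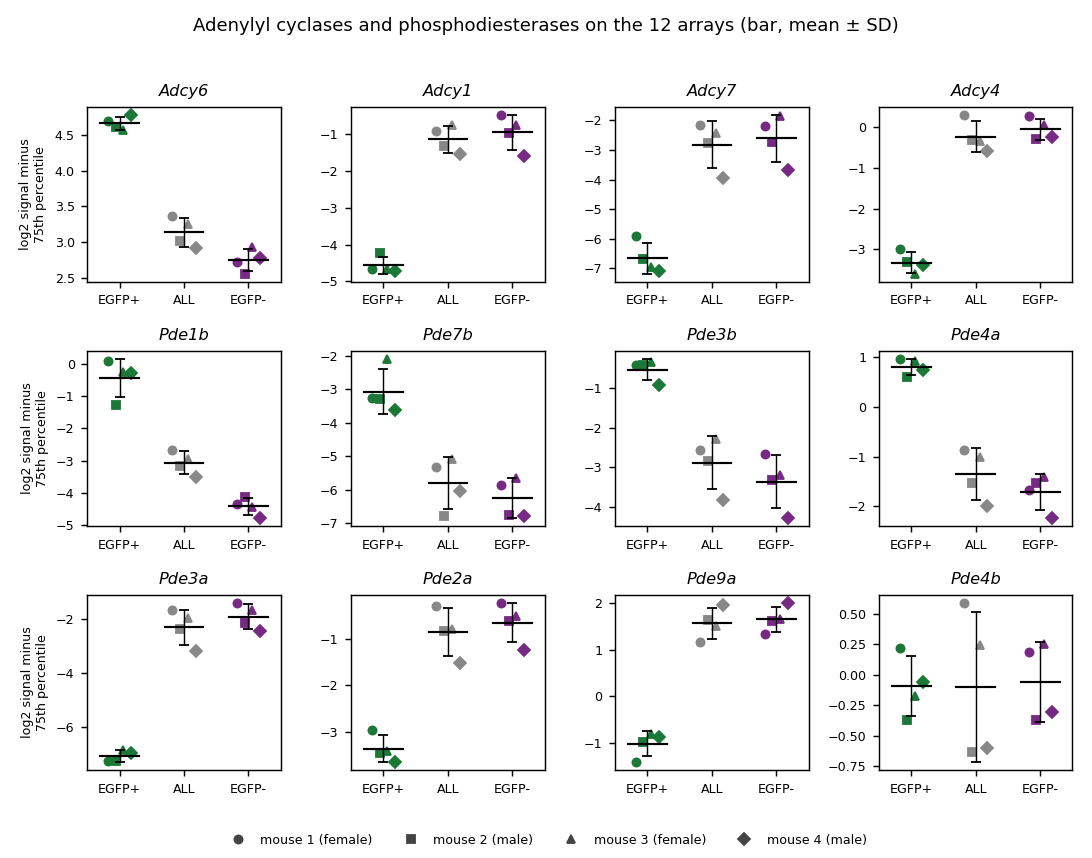
Level of 4 adenylyl cyclases and 8 phosphodiesterases on each of the 12 arrays, as log2 signal minus the 75th percentile of the array, with EGFP+, ALL and EGFP- from left to right; symbols mark the mouse, lines the mean and error bars ± 1 SD (n = 4 mice). The EGFP+ arrays lie above the others for Adcy6, Pde1b, Pde7b, Pde3b and Pde4a and below them for Adcy1, Adcy7, Adcy4, Pde3a, Pde2a and Pde9a, while the fractions overlap for Pde4b; each panel has its own vertical scale.

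The 6 genes of protein kinase A changed unevenly: 1 of 2 catalytic and 2 of 4 regulatory subunits were higher, 1 regulatory subunit was lower, and the other two did not pass. Prkaca, the alpha catalytic subunit, stood at 3.28, 3.26, 3.58 and 3.39 in EGFP+ tubules of mice 1 to 4, 2.77, 3.08, 2.96 and 3.71 in ALL and 2.88, 2.94, 2.88 and 3.62 in EGFP- tubules. EGFP+ and EGFP- arrays overlapped only through mouse 4, and the difference of 0.29 ± 0.22 did not pass (adjusted p = 0.267). Without mouse 4 it was 0.47 (adjusted p = 0.0141). Prkacb, the beta catalytic subunit, stood at 0.53, 0.63, 0.54 and 0.64 in EGFP+ tubules, 0.11, -0.04, -0.19 and -0.36 in ALL and 0.13, -0.18, -0.18 and -0.26 in EGFP- tubules. All EGFP+ arrays were above all others, by 0.71 ± 0.12 (1.63-fold, adjusted p = 0.000438), and a second probe gave 0.53 ± 0.12.

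Prkar1a, the widely expressed type I alpha regulatory subunit, stood at 1.97, 1.83, 1.82 and 1.52 in EGFP+ tubules, 1.31, 1.04, 0.97 and 0.38 in ALL and 1.17, 0.75, 0.92 and 0.45 in EGFP- tubules. EGFP+ arrays lay above all others, by 0.96 ± 0.21 over EGFP- tubules (1.95-fold, adjusted p = 0.00174). Prkar1b, the type I beta subunit known from neurons, stood at -0.80, -1.003, -0.65 and -0.98 in EGFP+ tubules, -2.70, -2.68, -2.63 and -4.04 in ALL and -3.33, -3.44, -3.35 and -4.44 in EGFP- tubules. It was well above background on all 12 arrays and 6.88-fold higher in EGFP+ than in EGFP- tubules (2.78 ± 0.33, adjusted p = 1.8e-05). Its second probe was well above background on 3 EGFP+ arrays, 1 ALL array and no EGFP- array, so by that probe it was at least 1.60-fold higher (measured difference 2.34 ± 0.35). Prkar2a, the type II alpha subunit, stood at 0.36, 0.38, 0.63 and 0.52 in EGFP+ tubules, 0.04, 0.12, 0.20 and -0.59 in ALL and 0.13, 0.19, 0.17 and -0.41 in EGFP- tubules. The 4 EGFP+ values were above the 4 EGFP- values, yet the difference of 0.45 ± 0.19 missed the threshold (adjusted p = 0.0571). It passed with the mouse as a replicate block (adjusted p = 0.0217), with median centring (0.61, adjusted p = 0.00728) and with the mean of its 3 tested probes (0.78, adjusted p = 0.0451).

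Prkar2b, the type II beta subunit best known from fat and brain, was the one subunit lower in EGFP+ tubules. Its levels were -5.53, -5.49, -5.38 and -5.99 in EGFP+ tubules, -2.09, -2.39, -2.11 and -3.27 in ALL and -2.33, -2.35, -2.16 and -2.68 in EGFP- tubules. The probe was well above background on all 4 ALL and all 4 EGFP- arrays and on no EGFP+ array, so Prkar2b was at least 7.33-fold lower (adjusted p = 4.61e-07). With normexp the difference was -0.77 (adjusted p = 0.113) and not called. The probes of the regulatory subunits with the largest differences in either direction read as follows, each on the strand of its gene:
Prkar1b, chr5:139271254-139271313 on the - strand: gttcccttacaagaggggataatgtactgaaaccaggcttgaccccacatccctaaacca
Prkar2b, chr12:32543773-32543832 on the - strand: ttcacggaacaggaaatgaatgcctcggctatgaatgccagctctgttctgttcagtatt

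**Figure D3:**
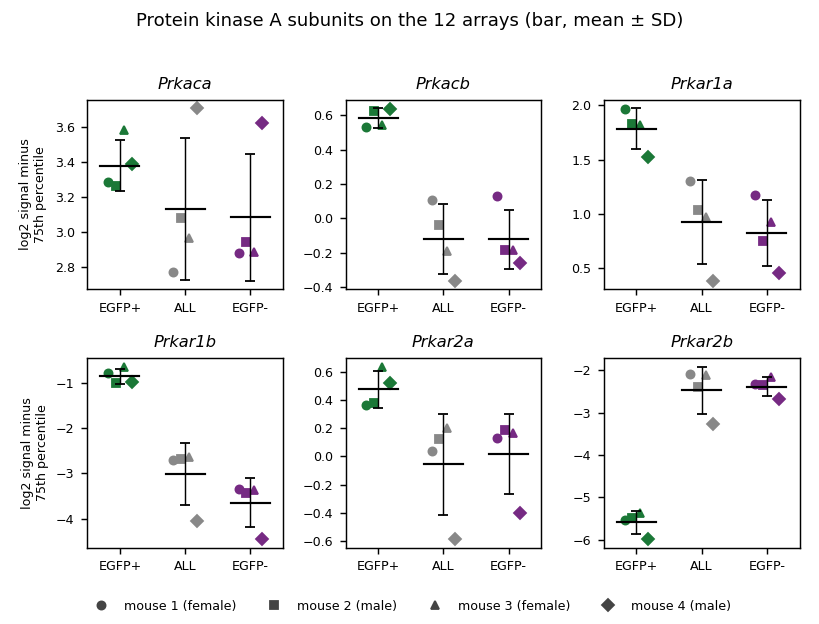
Level of the 6 protein kinase A subunits on each of the 12 arrays, as log2 signal minus the 75th percentile of the array, with EGFP+, ALL and EGFP- from left to right; symbols mark the mouse, lines the mean and error bars ± 1 SD (n = 4 mice). The EGFP+ arrays lie above the others for Prkacb, Prkar1a and Prkar1b and below them for Prkar2b, and the EGFP- array of mouse 4 stands apart in Prkar1b, Prkaca and Prkar2a, as does its ALL array in Prkar1b.

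Anchoring proteins were mostly lower or not called. Akap2 (now named Pakap) stood at 0.24, 1.39, 0.70 and 0.70 in EGFP+ tubules, 4.51, 4.84, 4.58 and 4.20 in ALL and 4.80, 4.72, 4.59 and 4.58 in EGFP- tubules. EGFP+ arrays lay below all others, with a difference of -3.91 ± 0.22 from EGFP- tubules (15-fold lower, adjusted p = 2.98e-08), and its other probes gave -3.93 ± 0.28 and -3.95 ± 0.22. Akap12, also called gravin, stood at -2.24, -2.14, -2.50 and -2.78 in EGFP+ tubules, 1.23, 0.76, 1.07 and 0.11 in ALL and 1.36, 1.11, 1.29 and 0.55 in EGFP- tubules. Again no array overlapped, and the difference was -3.49 ± 0.26 (11.3-fold lower, adjusted p = 3.18e-07). Akap6, the anchoring protein of the nuclear envelope in muscle, stood at -6.70, -6.27, -7.04 and -7.18 in EGFP+ tubules, -3.83, -4.37, -4.32 and -4.87 in ALL and -3.74, -4.14, -3.96 and -4.66 in EGFP- tubules. No EGFP+ array was well above background, so it was at least 2.19-fold lower (adjusted p = 4.33e-06), and with normexp its sign turned (0.28, adjusted p = 0.632).

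Akap4, known from the sperm tail, was the anchoring protein nearest to no difference, at -4.98, -5.54, -5.54 and -3.72 in EGFP+ tubules, -4.68, -5.43, -4.95 and -4.99 in ALL and -4.50, -6.02, -4.82 and -4.91 in EGFP- tubules. It was well above background on 2, 3 and 2 arrays of EGFP+, ALL and EGFP- tubules, and the difference of 0.12 ± 0.42 was within the spread (adjusted p = 0.825). Akap8l, a nuclear protein, was the only anchoring protein higher (0.48 ± 0.13, adjusted p = 0.00815), and not without mouse 1 (0.43, adjusted p = 0.0612). Its close relative Akap8 gave 0.24 ± 0.11 (adjusted p = 0.0845) and passed with median centring (0.40, adjusted p = 0.0197). Akap9 of the centrosome and Golgi (0.26 ± 0.17) and the mitochondrial proteins Akap10 (-0.14 ± 0.12) and Akap1 (-0.15 ± 0.19) did not pass.

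The other lower members of the family were Akap13 (-1.14 ± 0.13, adjusted p = 1.28e-05), Akap7 (-0.49 ± 0.18, adjusted p = 0.0324), a small anchoring protein linked in collecting duct to aquaporin-2 vesicles, and Akap11 (-0.47 ± 0.13, adjusted p = 0.00812). Akap7 was not called without mouse 1, 2 or 3 (differences -0.42, -0.56 and -0.41, adjusted p = 0.113, 0.0775 and 0.145). Akap11 was not called without mouse 2 (-0.45, adjusted p = 0.0623). Median centring ended both calls (Akap7 -0.33, adjusted p = 0.064, and Akap11 -0.31, adjusted p = 0.179), and normexp that of Akap7 (-0.30, adjusted p = 0.172).

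Members read by several probes did not always give one sign. Of the 22 members with more than 1 tested probe, 14 had all probes on one side of 0, and in 2, Pde4dip and Pde4a, probes passed the threshold in opposite directions. Pde4dip lies on the - strand, and from its 5′ to its 3′ end the probes gave -0.52 ± 0.20, 0.39 ± 0.16, 0.66 ± 0.12, 0.63 ± 0.11 and -1.66 ± 0.17, so that the inner 3 were positive and both outer ones negative. The inner probe that stands for the gene stood at 2.65, 2.38, 2.57 and 2.48 in EGFP+ tubules, 2.04, 1.92, 1.89 and 1.86 in ALL and 1.97, 1.71, 1.83 and 2.05 in EGFP- tubules. There EGFP+ was above EGFP- on all arrays (adjusted p = 0.000379 over all probes). The outermost probe at the 3′ side stood at 0.61, 0.31, 0.74 and 0.27 in EGFP+ tubules, 1.82, 2.35, 2.07 and 1.87 in ALL and 1.89, 2.45, 2.11 and 2.11 in EGFP- tubules. It was below the other fractions on all 4 EGFP+ arrays (adjusted p = 4.46e-06). All 5 probes were well above background on all 12 arrays, and the mean of the probes gave -0.099 (adjusted p = 0.47).

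In Pde4a, on the + strand, the downstream probe was the one higher in EGFP+ tubules. The upstream one gave -0.70 ± 0.23 (adjusted p = 0.0224), was well above background on no EGFP+ array, 3 ALL arrays and 1 EGFP- array, and was at least 1.09-fold lower. With the mean of both probes, Pde4a was higher by 0.90 (adjusted p = 0.00123). Pde4d, also on the + strand, gave 0.13 ± 0.38 on its first probe and -2.08 ± 0.37, -1.13 ± 0.43 and -1.73 ± 0.23 on the later ones. Pde8b's second probe lies on the strand opposite to the gene and gave 0.42 ± 0.43 (adjusted p = 0.422). In Pde1a all 4 probes were higher (0.43 ± 0.11 to 0.98 ± 0.14). The exons these probes fall in were not looked up, because no annotation of mm8 was used. The probes that disagree are printed to show which sequence gave which sign:
Pde4dip, chr3:97824724-97824783 on the - strand, higher: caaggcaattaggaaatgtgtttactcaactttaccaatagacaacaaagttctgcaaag
Pde4dip, chr3:97775238-97775297 on the - strand, lower: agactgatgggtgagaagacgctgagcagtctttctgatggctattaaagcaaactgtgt
Pde4a, chr9:20961912-20961971 on the + strand, higher: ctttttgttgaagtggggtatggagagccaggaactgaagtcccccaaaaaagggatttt
Pde4a, chr9:20942024-20942083 on the + strand, lower: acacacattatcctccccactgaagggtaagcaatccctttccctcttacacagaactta

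**Figure D4:**
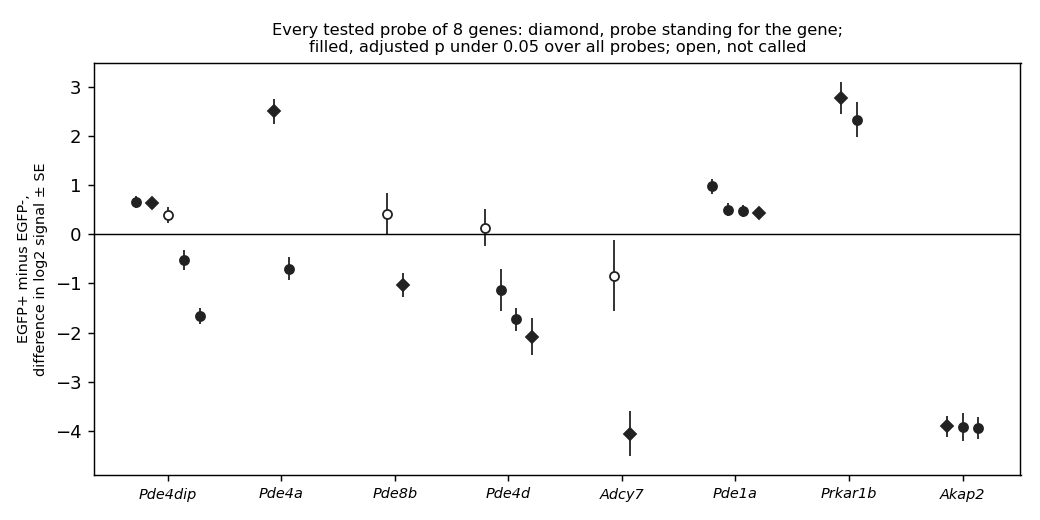
Difference in log2 signal, EGFP+ minus EGFP- tubules, for every tested probe of 8 genes; points are limma estimates over 4 mice per fraction, bars ± 1 SE, diamonds the probe that stands for the gene, and filled symbols an adjusted p under 0.05 over all 25819 tested probes. Pde4dip and Pde4a have filled symbols on both sides of 0, and the 3 probes of Akap2 lie together near -3.91.

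Genes switched on through cAMP often hold the cAMP response element TGACGTCA, bound by CREB and CREM, near their start. RefSeq promoter windows of 300 bases (250 before and 50 after each start, build GRCm38.p6) were matched to 43 members. The full element, which reads the same on both strands, was in the windows of 1 member, Prkar1a, against 2.03% of 27025 genes. The shorter form TGACG, which the full element contains, was on either strand in 16 of the 43 members (37.2%), against 23.0% of genes. Members have more windows each, however, and window by window the share was 21.1% of 90 against 20.8% of 32851. Prkar1a has 6 windows on chromosome 11. In the fifth the element begins 49 bases before the start, on the + strand, a match of letters that says nothing of binding, and it is shown with its flanks, the element in capitals:
Prkar1a, chr11:109650889-109650918 in GRCm38.p6: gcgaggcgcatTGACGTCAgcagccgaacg

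Set against ALL tubules, EGFP+ tubules gave nearly the same split, 16 members higher and 18 lower (all genes 30.3% higher and 24.9% lower). Both comparisons share the EGFP+ arrays, so the second is not independent. Prkar2a (0.53, adjusted p = 0.0319) and Akap8 (0.30, adjusted p = 0.04) passed here and Akap8l (0.32, adjusted p = 0.0575) and Akap7 (-0.40, adjusted p = 0.0765) did not. The ALL mean lay between the other two for 35 of the 42 members, above both for 1 and below both for 6. For the 6 members higher by at least 1 in EGFP+ tubules, the linear ALL signal lay between 4.51% (Pde7b) and 11.2% (Adcy6) of the way from the EGFP- to the EGFP+ mean. Slc12a3, the marker of the segment, lay at 12.1%, and the 7 DCT markers ran from 7.16% (Trpm6) to 24.9% (Calb1).

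Between ALL and EGFP- tubules 1 member differed, Pde1b, where 1.39% of all genes were called. It was higher in ALL by 1.36 ± 0.28 (adjusted p = 0.0373), with means of -3.07 ± 0.35 and -4.43 ± 0.27 (SD, limma over n = 4 mice). ALL and EGFP- arrays did not overlap. The call was lost without mouse 1 (1.24, adjusted p = 0.227), without mouse 3 (1.31, adjusted p = 0.438) and without mouse 4 (1.38, adjusted p = 0.123), when instead Prkar1b passed (0.70, adjusted p = 0.0236). It was also lost with normexp (adjusted p = 0.114), with no filter on dim signals (adjusted p = 0.0757) and with slide as a block (adjusted p = 0.116).

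Sex was compared on the mean of the 3 fractions of each mouse, 2 males against 2 females. No member passed (limma, adjusted p), where 1.27% of the 17070 genes did, and 9 members had an unadjusted p under 0.05, as did 3535 of all genes. Of these 9, 7 were lower in males, but the signs of the 3535 genes were not counted, so nothing particular to the members is read from the 7. Among the 7 were Pde7b (-1.01 ± 0.22, adjusted p = 0.132) and Adcy7 (-0.90 ± 0.32, adjusted p = 0.229). These levels rest in part on dim signal, since the probe of Pde7b was well above background on 2 ALL arrays and no EGFP- array and that of Adcy7 on no EGFP+ array. Male mouse 4 also had the 2 dimmest arrays, and the part of brightness in these gaps was not tested. With normexp 3 members passed: Adcy5 (0.43, adjusted p = 0.0464) and Pde1c (0.50, adjusted p = 0.0392), higher in males, and Pde4b (-0.53, adjusted p = 0.0342), lower in males. The difference between EGFP+ and EGFP- tubules depended on sex in no member and in 0% of all genes after adjustment, with 7 members and 2057 genes at an unadjusted p under 0.05.

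Genes around the pathway, on a list of 70, were read alongside, and of the 57 tested 21 were higher in EGFP+ tubules, 19 lower and 17 not called, with a median difference of -0.10. Over all genes 32.3% were higher and 25.9% lower, so nothing particular to the list is read from its counts. Receptors that couple to Gs were split, 4 of 11 higher and 5 lower. Higher were Adrb1, the beta-1 adrenergic receptor (5.06 ± 0.25, adjusted p = 1.5e-08), Adora2b, an adenosine receptor (4.80 ± 0.35), Gcgr, the glucagon receptor (3.09 ± 0.11), and Calcr, the calcitonin receptor (1.70 ± 0.30). Among the lower ones were the vasopressin receptor Avpr2 (-2.16 ± 0.16), the parathyroid hormone receptor Pth1r (-0.84 ± 0.26) and the prostaglandin E2 receptors Ptger4 and Ptger2, at least 14.6-fold and 1.59-fold. Among 6 receptors coupled to Gi, Casr, the calcium-sensing receptor (4.20 ± 0.46), and Ptger3 (1.85 ± 0.28) were higher and the other 4 lower. Of the G proteins and partners, Gnas, the Gs alpha subunit (0.48 ± 0.12), Gnaz (1.96 ± 0.20) and the chaperone Ric8b (1.28 ± 0.17) were higher, Gnai2 was lower (-2.17 ± 0.09), and Gnai1 and Gnai3 did not pass.

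Downstream of the kinase, both phosphatase inhibitors that protein kinase A switches on were higher, Ppp1r1a by 5.04 ± 0.13 (adjusted p = 7.95e-10) and Ppp1r1b by 2.44 ± 0.25. Of its 3 peptide inhibitors, Pkig was higher (1.05 ± 0.09), Pkia lower (-1.005 ± 0.18) and Pkib not called (-0.31 ± 0.28). Among other targets of cAMP, the exchange factor Rapgef4 (Epac2) was lower (-2.29 ± 0.29) while Rapgef3 (Epac1) missed the threshold (-0.40 ± 0.16, adjusted p = 0.0507). Prkx, a kinase related to the catalytic subunits, was higher (0.90 ± 0.10). Of 11 genes of cAMP-responsive transcription, 5 were higher by less than 1, Crem (0.72), Sik2 (0.70), Creb1 (0.38), Ep300 (0.35) and Crebbp (0.33), and Creb3 was lower (-0.38), where 32.3% of all genes were higher and 25.9% lower. Pde6h, a small subunit of the cone enzyme outside the letters used for members, was higher by 2.41 ± 0.20, and the mitochondrial Pde12 by 0.37 ± 0.12. The cGMP exporter Abcc5 was higher (0.56 ± 0.17).

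Of the genes that make or sense cGMP, 6 of 7 tested were lower and none higher, with a median of -4.45, where 25.9% of all genes were lower and the median was 0.11. Both subunits of soluble guanylyl cyclase, Gucy1a1 (-5.38 ± 0.38) and Gucy1b1 (-4.45 ± 0.25), and the receptor of C-type natriuretic peptide, Npr2 (-4.58 ± 0.28), were among them. The sizes of these differences rest in part on dim signal. Gucy1a1 was well above background on 1, Gucy1b1 on 2 and Npr2 on 3 of the 4 EGFP+ arrays. The cGMP-dependent kinase Prkg1 was at least 11.2-fold lower, Prkg2 at least 1.29-fold and the receptor Npr1 at least 1.69-fold, and these 3 had no EGFP+ array well above background. The summed signal of the 7, on the log2 scale, ran from -2.80 to -2.17 in EGFP+, 1.04 to 1.93 in ALL and 1.31 to 2.33 in EGFP- tubules.

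Markers of other cells moved with the lower members. All 7 tested markers of endothelium were lower, and their summed log2 signal ran from 2.02 to 2.42 in EGFP+, 5.25 to 6.06 in ALL and 5.60 to 6.30 in EGFP- tubules. Of 7 markers of smooth muscle, mesangium and stroma 6 were lower and Acta2 was not called (0.21 ± 0.22), with sums of 1.85 to 2.43 in EGFP+, 4.03 to 4.76 in ALL and 4.34 to 4.90 in EGFP- tubules. Pdgfra and Des were not well above background in any EGFP+ array. Of 5 leukocyte markers 4 were lower, with sums of -0.34 to 0.28 in EGFP+, 2.27 to 3.57 in ALL and 2.59 to 3.85 in EGFP- tubules, and Tyrobp was not well above background in any EGFP+ array. All 6 podocyte markers were lower, with sums of -1.16 to 0.56 in EGFP+, 4.71 to 5.93 in ALL and 5.14 to 6.15 in EGFP- tubules. The part of these cells in the lower levels of Adcy4, Adcy7, Pde2a, Pde3a, Akap2, Akap12 and the cGMP genes was not tested.

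Neighbouring epithelia moved too. All 7 proximal tubule markers were lower, with sums over the 3 that had a value on all arrays of -0.32 to 0.95 in EGFP+, 5.33 to 5.66 in ALL and 5.43 to 5.87 in EGFP- tubules. All 5 markers of principal cells were lower, with sums of 0.84 to 1.71 in EGFP+, 4.73 to 4.91 in ALL and 4.94 to 5.14 in EGFP- tubules, and Aqp4 and Hsd11b2 were not well above background in any EGFP+ array. Of 5 intercalated cell markers 3 were lower and 2 not called, with sums of 4.25 to 4.85 in EGFP+, 4.998 to 5.67 in ALL and 5.07 to 5.57 in EGFP- tubules. In the thick ascending limb list, Slc12a1 (0.75), Umod (1.93) and Ptger3 (1.85) were higher and Cldn10 was lower (-5.05). Sums were taken over the 3 that had a value on all arrays, without Umod. They ran from 4.77 to 5.17 in EGFP+, 5.10 to 5.52 in ALL and 5.33 to 5.59 in EGFP- tubules. The mean level of Umod was 7.84 (EGFP+), 6.46 (ALL) and 5.91 (EGFP-), so these sums do not speak for the whole list. For the 7 DCT markers the sums ran from 8.87 to 9.20 in EGFP+, 6.45 to 7.03 in ALL and 4.71 to 5.26 in EGFP- tubules. The part of the neighbouring segments in the members' differences was not tested either.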

How the data were processed

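Total RNA of 12 sorted tubule samples was extracted (Ambion microRNA kit), linearly amplified from low input (Agilent kit) and labelled with the dye Cy3, per the labels' protocols. Per the file headers, one-colour Agilent arrays of design 014868 were read with Feature Extraction 9.5.3.1, and probe coordinates are in mm8 (NCBI 36). The deposited scanner files hold intensities on a linear scale: the processed signal, which the authors' software had background-corrected, and the mean signal and local background. The deposited value table and its 12 columns were not used here, and 1 gene of the pathway list is not reported here.

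Control and outlier-marked spots were left out (66 to 516 outlier spots an array), spots of a probe averaged, and each array's log2 processed signal lowered by its 75th percentile. The share of probes well above background ran from 53.9% to 65.6%, and the number of arrays limits the precision. Probes well above background on at least 4 arrays were tested, and the tested probe with the highest mean stood for its gene. Of 41174 probes, 24375 were named by accession, 6301 by current symbol, 2426 by an older one, and 8072 kept the file's name, in the RefSeq table of GRCm38.p6. Fractions were compared with limma 3.58.1 (lmFit, eBayes) in R 4.3.3, over all 12 arrays with 1 coefficient per fraction, and Benjamini-Hochberg adjustment ran over all genes (threshold 0.05). The 2 sexes were compared on means, or on EGFP+ minus EGFP- differences, of each mouse. Errors of differences are SE, those of levels SD. A probe with no array of a group well above background gives "at least N-fold": the brighter group's mean against the mean, per dim array, of the higher of the probe's signal and the lowest signal well above background. The bound itself was not tested and rests on the software's background correction. A p printed beside it is that of the measured difference.

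The 3 fractions of a mouse share its number and animal. Their deviations from the fraction means correlated at 0.23 to 0.82 (median 0.34, 12 pairs), against a median of -0.19 between mice. Subtracting the fraction means itself pushes correlations between mice below 0, so that median is no independent comparison. Within a mouse, ALL and EGFP- correlated at 0.72 to 0.82, and EGFP+ with either of them at 0.23 to 0.39. Alternatives were normexp (offset 50), median centring, quantile normalization, no filter or at least 8 arrays, the mean of tested probes, slide or mouse as a block, each mouse left out, and a difference of at least 1. The fits were tested on simulated data. Members, lists and tests were chosen with earlier results of these data known. Full values are given for the 6 kinase subunits, for other members past the threshold with a difference of at least 2 (up to 10 a side) and for the member of each family nearest to 0.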

Additional observations from a re-analysis of the deposited data

Results flagged for a closer look

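Each tested member was looked at in each fraction for 1 mouse that stood apart from the other mice by more than the critical value of Dixon's test. Of 126 such groups 10 held one, and chance alone gives about 1 in 20. Of the 10 values, 7 belong to the ALL or EGFP- array of mouse 4, the 2 dimmest arrays, and the part of brightness in them was not tested.

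Prkar1b was low in mouse 4 in both of those fractions, at -4.04 in ALL, where the others ran from -2.70 to -2.63, and at -4.44 in EGFP- tubules, where the others ran from -3.44 to -3.33. Prkar2a was low in EGFP- tubules of mouse 4 (-0.41, the nearest being 0.13), and Prkaca was high there (3.62, nearest 2.94). Adcy3 was low in EGFP- tubules of mouse 4 (-6.38, nearest -4.59) and Akap10 high (1.11, nearest 0.79). Akap13 was high in ALL tubules of mouse 4 (0.51, nearest 0.18). In EGFP+ tubules, Pde3b was low in mouse 4 (-0.94, nearest -0.43), Pde4d low in mouse 3 (-6.39, nearest -5.14) on a probe not well above background there, and Adcy1 high in mouse 2 (-4.23, nearest -4.65). Without mouse 4, the differences between EGFP+ and EGFP- tubules were 2.56 for Prkar1b, 0.30 for Prkar2a and 2.67 for Pde3b.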

How the results depend on the processing

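Median centring moved the median difference of all genes from 0.11 to 0.26 and the share of higher calls from 55.6% to 62.7%, so small differences are relative to the scaling. The cause of the changes given here was not tested, other than the size rule's own construction. With a difference of at least 1 required, 6 members were higher in EGFP+ than in EGFP- tubules and 6 higher than in ALL. At the same size 16 members were lower than in EGFP- tubules and 14 lower than in ALL. Of all 17071 genes, 2274 were higher and 3310 lower than in EGFP- tubules at this size. With normexp 9 members were lower than in EGFP- tubules and 10 lower than in ALL. Between ALL and EGFP- tubules no member was called with normexp, without a filter on dim probes or with slide as a block (0 each), and leaving out each mouse gave 0 to 1. Between the sexes normexp gave 3 members. Signs reversed with normexp in Adcy3 (0.52), Adcy5 (0.088), Akap6 (0.28) and Pde1c (0.63), and with the mean of probes in Pde4dip (-0.099). Pde8b was not called with the mean of probes (-0.30). Quantile normalization, slide as a block and the stricter filter changed no member's call between EGFP+ and EGFP- tubules, though the stricter filter left 37 members. The mouse as a replicate block added Prkar2a (adjusted p = 0.0217) and changed no other call.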
